A study of Mus musculus with 6 samples.

Results

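The transcripts of 10 hypothalamic neuropeptide precursors were followed through cells that carry no neuronal label. The genes were Pomc, Agrp, Npy, Cartpt, Avp, Oxt, Sst, Gal, Pmch and Trh, taken by symbol from the 16411 genes of the raw count table. All 10 were listed, and 9 had at least 1 UMI (unique molecular identifier, a counted molecule) in the cells used. Cells came from the dissociated hypothalamus of male ob/ob mice, which lack leptin, at 11 weeks of age. Each mouse had been injected once into a cerebral ventricle with 3 µg of FGF1 R50E, a mutant form of fibroblast growth factor 1, and was killed on day 5. The labels name 6 such mice, and cells of 4 of them (mice 3, 4, 30 and 34) were analysed here, each mouse being 1 replicate. There was 1 treatment group, so no effect of the treatment is described. Libraries were made with the Chromium 3' v2 kit, which counts the 3' ends of transcripts. The authors' labels put the 20151 cells into 9 types: astrocytes, tanycytes, ependymal cells, oligodendrocyte precursors (OPC), committed oligodendrocyte precursors (COP), oligodendrocytes, endothelial cells, microglia and vascular leptomeningeal cells.

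Neuropeptides are made as longer precursors that are cut in the secretory pathway and released from dense-core vesicles. In the arcuate nucleus, neurons that make POMC (cut to α-MSH) and CART lower food intake, whereas neurons that make AgRP and NPY raise it. Pmch encodes the precursor of melanin-concentrating hormone of the lateral hypothalamus, and Trh, Sst, Avp and Oxt encode hypophysiotropic or neurohypophysial hormones that are also made in hypothalamic neurons. RNA from broken cells can enter every droplet of such an assay. It would then be found at a like level in all cell types of a library. The question was therefore whether each precursor was evenly spread over the types, either relative to the UMI total of a type or per cell.

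Mice 3, 4, 30 and 34 gave 7386, 3180, 3005 and 6580 cells, with medians of 909 to 1066 UMIs per cell. Pairs of libraries shared 18 to 66 cell barcodes, at most 1.07% of the smaller library. The type labels were checked against marker lists. Of the listed markers of each type, all had their highest mean level in their own type except Adm of the tanycyte list, which was highest in vascular leptomeningeal cells, and Tnr of the OPC list, which was highest in COP. Depth differed between types. Median UMIs per cell were 851 in astrocytes, 939 in microglia, 1131 in ependymal cells, 1136 in oligodendrocytes, 1143 in tanycytes and 1771 in COP. Only 68 cells were labelled vascular leptomeningeal, and this type was left out of the tests.

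Of the precursors, Avp and Oxt, which encode vasopressin and oxytocin with their carrier neurophysins, were the least measurable. Avp was listed at 0 in every cell of all 4 mice, and Oxt had 10 UMIs in 10 cells, all of mouse 30. The oxytocin UMIs lay in astrocytes (5), tanycytes (2), OPC (2) and endothelial cells (1). These genes are neighbours on chromosome 2 (GRCm38, GENCODE M21): Oxt at chr2:130576173-130577054 on the plus strand and Avp at chr2:130580620-130582554 on the minus strand. Their coding sequences share a stretch of identical bases in the neurophysin part, so that a read wholly inside it cannot be given to 1 of them. The longest run of identical bases in the GENCODE M21 transcripts is shown because it bears on which of both genes a read could be counted for. It is given below in capitals, 5′ to 3′ on each transcript, with flanks in lower case.
Avp: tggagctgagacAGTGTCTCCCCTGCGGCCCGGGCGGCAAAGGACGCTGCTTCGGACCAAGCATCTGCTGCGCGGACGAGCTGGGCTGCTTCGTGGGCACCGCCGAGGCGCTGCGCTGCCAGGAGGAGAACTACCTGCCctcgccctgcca
Oxt: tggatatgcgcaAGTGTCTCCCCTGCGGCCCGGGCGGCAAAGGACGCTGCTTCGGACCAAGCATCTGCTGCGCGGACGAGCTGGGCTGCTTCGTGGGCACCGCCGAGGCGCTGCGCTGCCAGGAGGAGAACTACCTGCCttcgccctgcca
The shared run is 127 bases long, lies in the coding part of exons 1 and 2 of 3, and ends 307 bases before the 3′ end of the 577-base Avp transcript and 255 bases before that of the 537-base Oxt transcript. In the genome it spans chr2:130581133-130582411 in Avp and chr2:130576328-130576715 in Oxt, an intron included. How reads that fit both genes were counted is not given in the sources used here. No limit was set on Avp, because 1194 of the listed genes were at 0 in all these cells and only 34 were in exactly 1 cell. That leaves a filter on genes untested, for Avp and also for Oxt in mice 3, 4 and 34. In those mice 1690, 2414 and 1630 listed genes were at 0, and 19, 37 and 38 were in exactly 1 cell.

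The other 8 precursors were found in small numbers. Pmch had 840 UMIs in 722 cells, Npy 826 in 697, Cartpt 766 in 738, Pomc 480 in 464, Agrp 410 in 327, Sst 269 in 241, Gal 163 in 160 and Trh 22 in 22. Most cells with a UMI of a precursor had a single one: from 91.5% of such cells for Npy and 91.8% for Pmch to 97.2% for Pomc, 98.1% for Gal and all 22 for Trh. Of all cells, 15.2% held a UMI of at least 1 of the 7 genes with over 100 UMIs, 13.9% held 1 of the 7, and 1.26% held 2 of them. Each of Pomc, Agrp, Npy, Cartpt, Sst and Pmch was found in all 9 types. The gene models of Pomc (chr12:3954951-3960642), Npy (chr6:49822710-49829507), Cartpt (chr13:99898489-99901091), Sst (chr16:23889573-23890958), Gal (chr19:3409915-3414544), Pmch (chr10:88091072-88092375) and Trh (chr6:92242061-92244650) overlap no other gene on their strand. That of Agrp (chr8:105566698-105637393) is annotated with a long extension over other genes, 2 of them on its strand, so its counts are less certain.

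Levels were compared as CPM, the UMIs of a gene scaled to the UMI total of its sum. Over all cells, the levels of Agrp, Npy, Pmch, Cartpt and Gal had a wider range over the mice than those of Sst and Pomc. Agrp, whose product is an antagonist at melanocortin receptors, had levels of 10.2, 26.4, 42.7 and 9.60 CPM (mice 3, 4, 30 and 34). Npy was at 29.4, 38.5, 60.9 and 27.2 CPM in the same order, so both were highest in mouse 30. In mouse 4, a single cell held 54 of the 103 Agrp UMIs and 45 of the 150 Npy UMIs. Without the 3 cells of mouse 4 that held 5 or more UMIs of a precursor, its levels were 12.6 CPM for Agrp and 27.0 CPM for Npy, near those of mice 3 and 34. The other direction was seen for Pmch, at 31.7, 25.9, 15.8 and 51.3 CPM, and for Cartpt, at 29.4, 36.9, 20.3 and 37.3 CPM, which were both lowest in mouse 30. Pomc ranged from 16.4 to 22.0 CPM and Sst, the precursor of somatostatin, from 9.98 to 12.4 CPM. Gal, the precursor of galanin, was at 4.74, 2.82, 9.70 and 9.85 CPM. Trh, which encodes the precursor of thyrotropin-releasing hormone, stayed at or below 1.26 CPM.

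**Figure D1:**
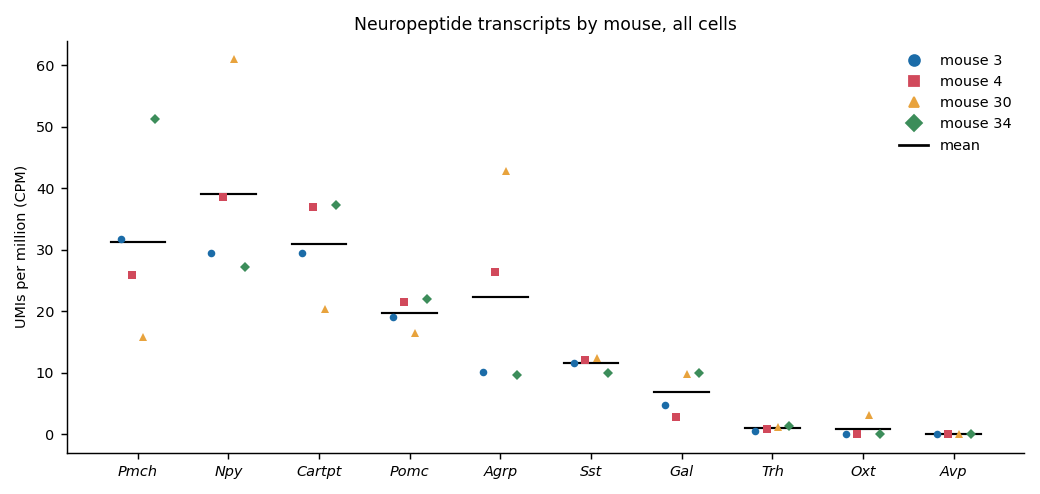
Level of each precursor over all cells of a mouse, in CPM; points are mice and bars their mean. Mouse 30 is the highest for Npy and Agrp and the lowest for Pmch and Cartpt, and Avp is at 0 in all 4 mice.

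Whether levels were even over types was tested on counts summed per mouse and type, over 8 types, with the edgeR quasi-likelihood F test and mouse as a block. Of the 10 precursors, 5 passed the filter on low counts (Npy, Pmch, Cartpt, Pomc and Agrp). Relative to UMI totals, all 5 differed between types, as did 92.3% of the 10166 genes tested, so a call sets these genes apart from few others. The difference of Agrp was lost with DESeq2, with no replicate block, with at most 1 UMI per cell and gene and without cells with 5 or more UMIs of a precursor (adjusted p of 0.05002, 0.196, 0.104 and 0.0602), and that of Cartpt when cells were thinned to 800 UMIs (0.375). By the edgeR test with all cells, the adjusted p was 2.41e-13 for Npy, 8.57e-08 for Pomc, 1.37e-07 for Pmch, 0.000358 for Cartpt and 0.0102 for Agrp. On simulated counts this F test made clearly more false calls than its limit allows, and the adjusted p of Agrp is the nearest to that limit. Per cell, where 97.4% of genes were called, the precursors parted. Npy (adjusted p = 4.94e-20), Pomc (1.09e-11) and Agrp (3.78e-05) differed between types, while Pmch (0.183) and Cartpt (0.747) did not pass the threshold. Per cell, the difference of Agrp was lost in 6 of 12 alternatives: with DESeq2 (adjusted p = 0.116), without mouse 4 (0.1085), without the 10% of cells with the highest doublet score (0.464), without cells with 2 or more UMIs of the neuron list (0.565), with at most 1 UMI per cell and gene (0.710) and without cells with 5 or more UMIs of a precursor (0.574). Pmch passed it without cells with 2 or more UMIs of the neuron list (0.00647). The type labels may rest on the same counts, so these p-values describe the labelled types and are no independent evidence for them. With a filter of 10 UMIs, 9 precursors were tested, and Sst (adjusted p = 0.432 relative to UMI totals), Gal (0.292), Trh (0.666) and Oxt (0.233) did not pass. Under that filter 82.6% of the 14712 genes tested were called relative to UMI totals. Sst, Gal, Trh and Oxt had 269, 163, 22 and 10 UMIs, so failing to pass does not show that they were even over types.

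Npy was highest in ependymal cells, which line the ventricles and bear cilia. Its level there was 72.8, 170, 92.8 and 92.6 CPM (mice 3, 4, 30 and 34), against 47.1, 47.5, 84.1 and 31.0 CPM in astrocytes, the next highest type. In every mouse the ependymal level was above that of each other tested type, but in mouse 30 the margin over astrocytes and over oligodendrocytes, at 82.3 CPM, was small. Against the mean of the other 7 types, the log2 fold change in ependymal cells was 2.07 ± 0.20 relative to UMI totals (SE of the fit, adjusted p = 2.77e-14) and 2.38 ± 0.20 per cell (adjusted p = 1.89e-22). The mean was 156 ± 62.7 Npy UMIs per 1000 ependymal cells (SD, n = 4), against 26.4 ± 19.6 per 1000 microglia, the lowest mean. The microglial mean rested on 9 UMIs and lay near those of OPC (26.7), endothelial cells (27.2) and COP (27.3). The share of ependymal cells with an Npy UMI was 9.34% ± 3.12, and 5.35% ± 1.06 once every cell was thinned to 800 UMIs. Among the other tested types, the thinned share was highest in astrocytes (3.53% ± 1.30) and lowest in COP (1.16% ± 0.46). In microglia it was 1.22% ± 1.57. In mouse 30 it was 5.47% in ependymal cells, 5.48% in oligodendrocytes and 5.29% in astrocytes.
Leaving out mouse 4 gave 1.82 for the log2 fold change, and leaving out any other mouse gave between 1.86 and 2.43.

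Part of the ependymal Npy and most of the ependymal Agrp lay in 1 cell. An ependymal-labelled cell of mouse 4 held 54 Agrp and 45 Npy UMIs among 2514 UMIs, 5 UMIs of the ependymal list and 7 of the neuron list, and its doublet score was higher than that of 90.7% of the cells of its mouse. Without cells that held 5 or more UMIs of a precursor, Npy in ependymal cells of mouse 4 was at 40.7 CPM, below the level in its astrocytes, and the levels in mice 3, 30 and 34 stayed as they were. The log2 fold change of Npy was then 1.71 (adjusted p = 1.44e-10). Agrp in ependymal cells had levels of 8.08, 170, 31.6 and 8.42 CPM (mice 3, 4, 30 and 34), and without those cells mouse 4 was at 14.5 CPM. Its log2 fold change went from 1.34 ± 0.35 (adjusted p = 0.00103) to -0.14 (adjusted p = 0.759), and without mouse 4 it was -0.10 (adjusted p = 0.853). This choice was made after the cell had been seen.

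**Figure D2:**
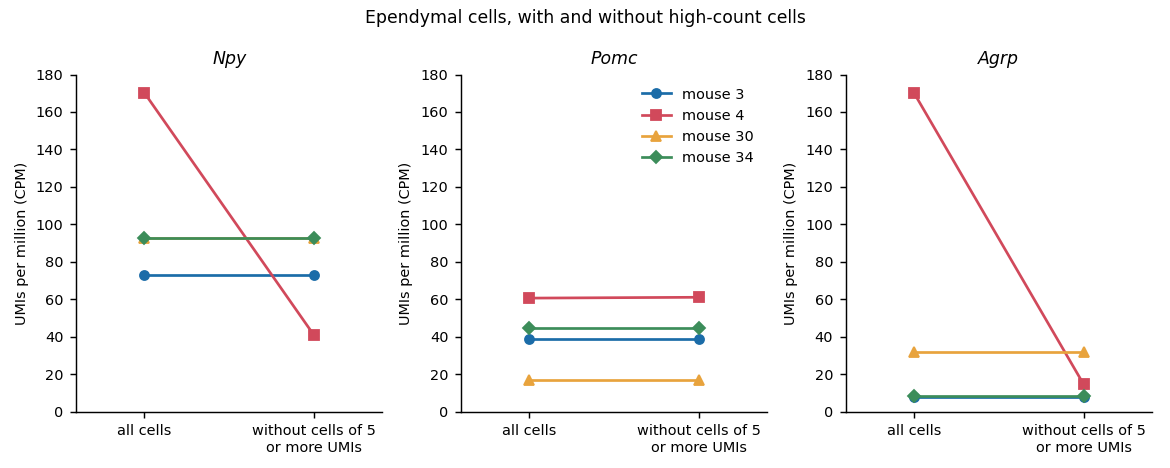
Levels of Npy, Pomc and Agrp in ependymal cells of each mouse, in CPM, over all cells and without cells that held 5 or more UMIs of a precursor; each line is a mouse. Mouse 4 falls from 170 to 40.7 CPM for Npy and to 14.5 CPM for Agrp, while Pomc hardly moves; mice 30 and 34 overlap for Npy.

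Pomc was higher in ependymal and endothelial cells. In ependymal cells its levels were 38.8, 60.6, 16.9 and 44.5 CPM (mice 3, 4, 30 and 34). Mouse 30, which had 8 UMIs there, was the exception and lay below its own astrocytes at 24.0 CPM. The log2 fold change was 1.33 ± 0.23 relative to UMI totals (adjusted p = 6.72e-07) and 1.62 ± 0.24 per cell (adjusted p = 3.47e-09). No cell held more than 3 Pomc UMIs, so that no single cell set this value, and the log2 fold change lay between 1.17 and 1.48 when any mouse was left out. In endothelial cells Pomc was at 30.8, 13.0, 45.5 and 34.3 CPM, with mouse 4 resting on 3 UMIs. The log2 fold change of 1.01 ± 0.27 (adjusted p = 0.00115) lay at the limit of 1 and fell below it in 7 of 15 alternatives. The list of mural cells, which wrap vessels, was also high under the endothelial label: all 5 of its genes were higher there, beside 14.1% of all genes, and it summed to 2119 to 2660 CPM over the mice, against 0 to 131 CPM in the other tested types. Its part in the endothelial level of Pomc was not tested. In the remaining types the mean ranged from 8.39 CPM in microglia to 22.8 CPM in tanycytes.

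**Figure D3:**
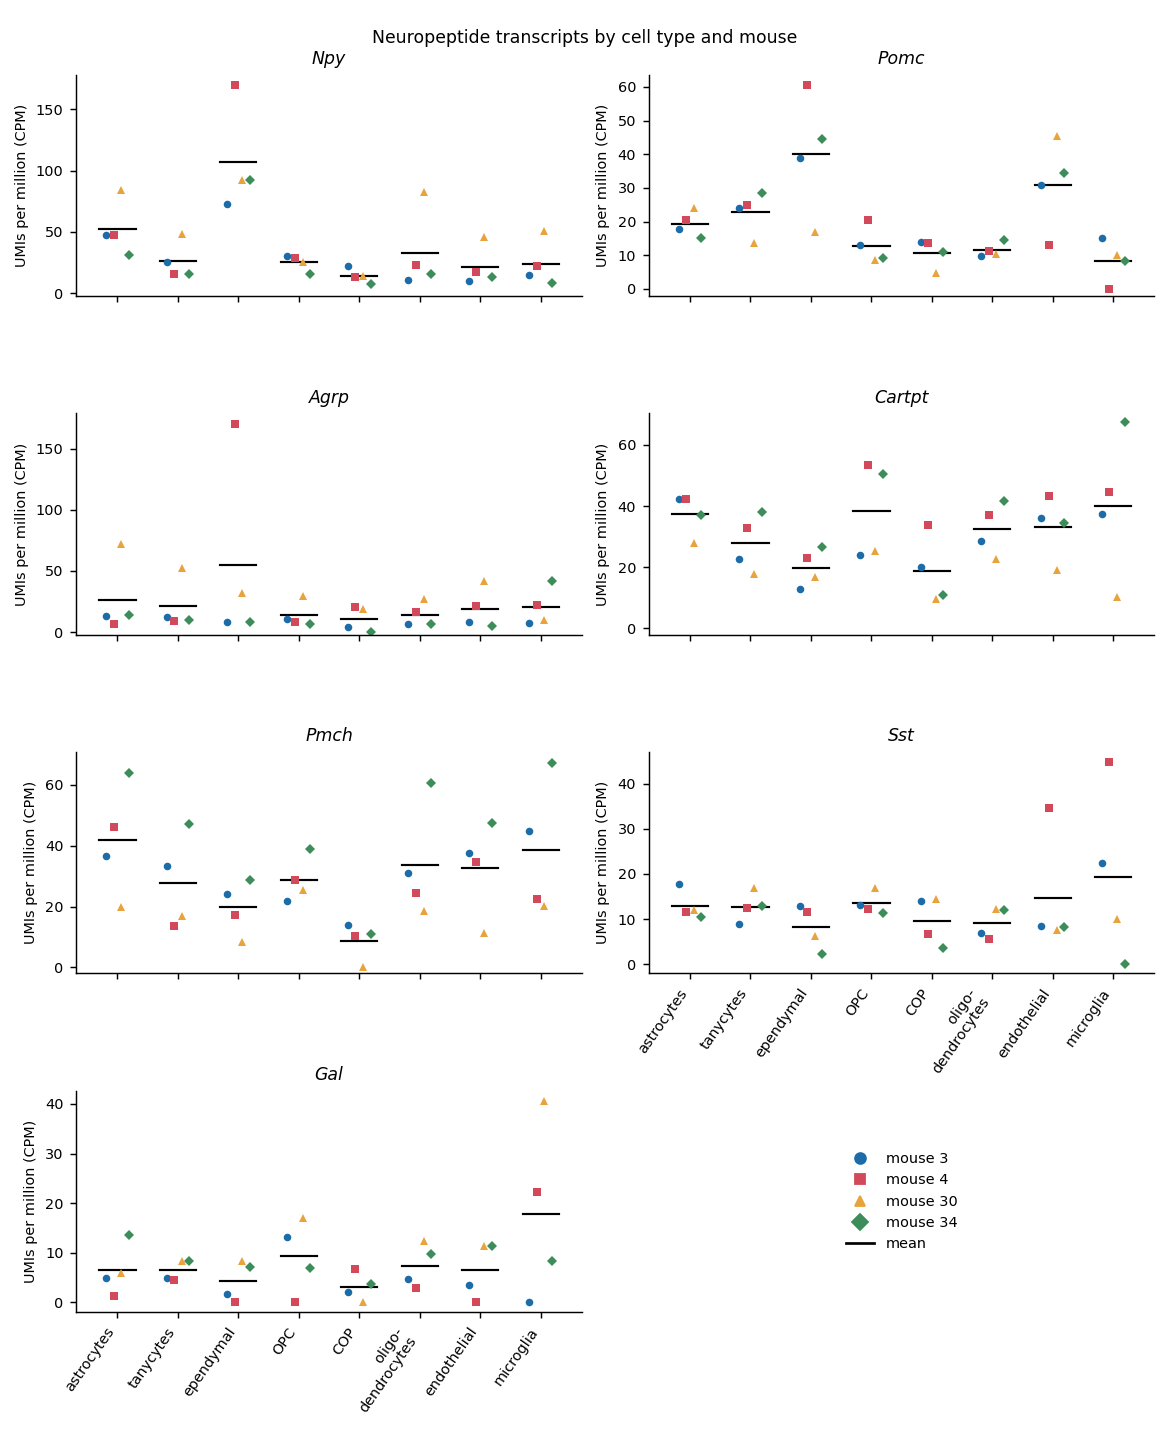
Level of the 7 precursors with over 100 UMIs in 8 cell types, in CPM; points are the 4 mice and bars their mean. Npy and Pomc stand highest in ependymal cells, Agrp there in mouse 4 alone, and the mice of most types overlap for Cartpt and Pmch.

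Ependymal cells were the type in which most of the 5 tested precursors were called higher than in the other types (log2 fold change above 1, adjusted p below 0.05): 3 of 5 (Npy, Pomc and Agrp, the last through 1 cell), beside 17.9% of all genes. Per cell, the same 3 were higher, beside 22.5% of all genes. None of the 5 was lower there, beside 9.96% of genes. In endothelial cells 1 of 5 was higher (Pomc), beside 14.1% of genes, and per cell again Pomc, beside 14.7%, and 0 were lower, beside 9.2%. In COP 2 of 5 were lower (Npy and Pmch), beside 17% of genes, and 0 were higher, beside 11.6%. In the other 5 types none of the 5 precursors was called in either direction. There, 11.8% of genes were higher and 6.68% lower in astrocytes, 12% and 7.57% in tanycytes, 10.9% and 6.39% in OPC, 10.8% and 12.5% in oligodendrocytes, and 10.5% and 8.42% in microglia. DESeq2 made no call in these 5 types either, nor in endothelial cells. At an unadjusted edgeR p below 0.05, with no limit on size, the precursors of these 5 types were Npy, Pmch and Cartpt (higher) in astrocytes, Pomc (higher) in tanycytes, Pomc (lower) in OPC, Pmch and Cartpt (higher) in oligodendrocytes and 0 in microglia. The adjusted p of that test was 0.0262 for Pomc in tanycytes and 0.066 for Pomc in OPC. In oligodendrocytes it was 0.0011 for Pmch and 0.0433 for Cartpt. In ependymal cells Pmch and Cartpt had negative log2 fold changes at that unadjusted p, of -0.52 (adjusted p = 0.0575) and -0.68 (adjusted p = 0.00957). In astrocytes the log2 fold changes of Npy, Pmch and Cartpt were positive and under the limit of 1, at an adjusted p of 5.15e-05, 4.99e-05 and 0.0142 by the edgeR test, with values of 0.94 ± 0.20, 0.75 ± 0.16 and 0.44 ± 0.15. The median log2 fold change of the 5 was 1.33 in ependymal cells and -1.14 in COP, against medians over all genes tested of -0.008 and -0.11. The ependymal median rested on the 1 cell with 54 Agrp UMIs: it was -0.14 without cells that held 5 or more UMIs of a precursor and -0.10 without mouse 4.

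**Figure D4:**
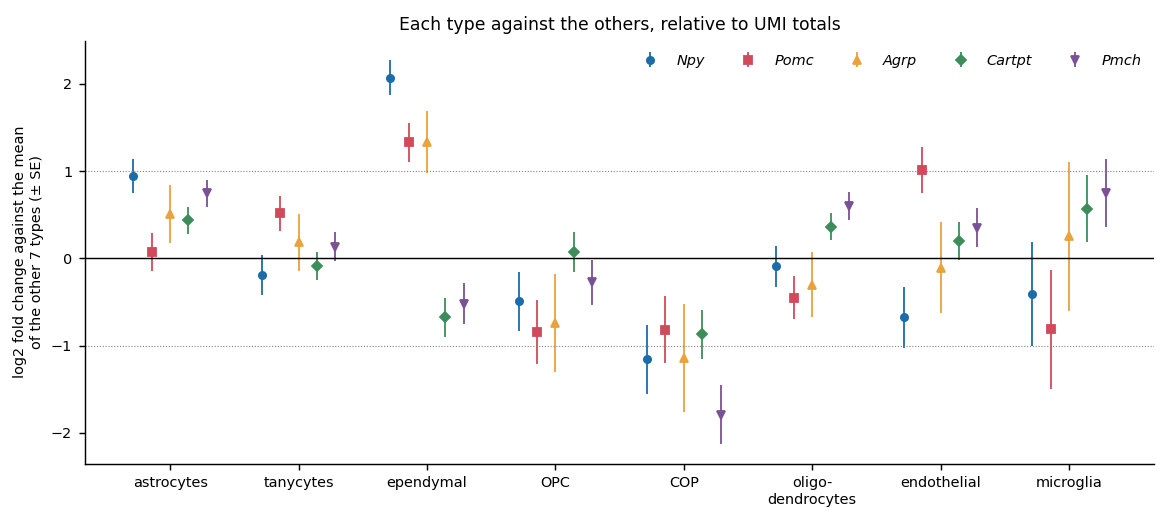
Log2 fold change of each tested precursor in a type against the mean of the other 7 types, relative to UMI totals. Bars are the standard error of the fit, not a spread between mice, and dotted lines mark the limits of 1 and -1. Npy stands at 2.07 in ependymal cells, where Cartpt and Pmch are negative, and all 5 are negative in COP.

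The calls in COP were made only relative to UMI totals. Pmch in COP had levels of 14.0, 10.2, 0 and 10.9 CPM (mice 3, 4, 30 and 34), a log2 fold change of -1.79 ± 0.34 (adjusted p = 1.19e-05). Per cell its log2 fold change was -0.89 ± 0.40 (adjusted p = 0.0477). Npy in COP was at 22.1, 13.6, 14.4 and 7.24 CPM, a log2 fold change of -1.16 ± 0.39 (adjusted p = 0.0126). This call was lost without mouse 30 (-0.83, adjusted p = 0.0643) and with no replicate block (-1.17, adjusted p = 0.0659). Per cell the log2 fold change was -0.42 ± 0.40 (adjusted p = 0.381). COP had the most UMIs per cell of the tested types. The part of that depth in the lower CPM was not tested beyond the comparison per cell.

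Cartpt, the precursor of CART peptides, and Pmch did not pass the test per cell. The ranges that follow are over the 8 tested types. The mean of Cartpt lay between 29.8 ± 13.2 UMIs per 1000 ependymal cells and 44.2 ± 15.3 per 1000 endothelial cells (SD, n = 4), a ratio of 1.48, and the ranges of these types overlapped. Pmch lay between 18.7 ± 14.6 per 1000 COP and 44.4 ± 23.1 per 1000 endothelial cells, a ratio of 2.37. In Pmch the spread between mice was wide in each type: in oligodendrocytes 31.0, 24.6, 18.5 and 60.7 CPM in mice 3, 4, 30 and 34, and in astrocytes 36.7, 46.3, 20.01 and 64.0 CPM. Mouse 34 was the highest for Pmch in all 8 types except COP, and mouse 30 was the lowest in 6 types. Sst means lay between 8.30 CPM in ependymal cells and 19.3 CPM in microglia, where they rested on 6 UMIs. Gal means lay between 3.10 CPM in COP and 17.8 CPM in microglia, again on 6 UMIs. Per cell, the ratio of the highest to the lowest mean was 2.14 for Sst and 3.37 for Gal, and neither passed the test relative to UMI totals with the filter of 10 UMIs.

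The high level of Agrp in mouse 30 was found in several types. Astrocytes of mouse 30 had 72.0 CPM of Agrp, and those of the others 6.42 to 14.0 CPM. Its tanycytes had 52.7 CPM, and those of the others 9.07 to 12.8 CPM. It was also the highest of the 4 mice in OPC, oligodendrocytes and endothelial cells. For Npy, oligodendrocytes of mouse 30 had 82.3 CPM and those of the others 11.2 to 22.7 CPM. The neuron list stood at 521, 737, 583 and 577 CPM over all cells of mice 3, 4, 30 and 34. Its highest value was thus in mouse 4 and not in mouse 30. The blood list stood apart in mouse 30, at 508 CPM over all cells against 156, 111 and 148 CPM in mice 3, 4 and 34. It was at 550 CPM in astrocytes of mouse 30 against 115 to 169 CPM in those of the other mice, and at 435 CPM in its tanycytes against 81.7 to 122 CPM. The part of neuronal or blood RNA in the levels of mouse 30 was not tested.

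A list of 15 genes of neurons was read in the same sums. Some of its genes were high in a single type that carries no neuronal label, such as Elavl4 at 102 CPM in OPC and Tubb3 at 94.6 CPM in oligodendrocytes, both named after their values were seen. Whether its total is a measure of neuronal RNA alone was not tested. All 15 genes had UMIs, led by Celf4 (4027 UMIs), Stmn2 (2080) and Snap25 (1999), of which Stmn2 binds tubulin and Snap25 is part of the vesicle fusion machinery. Of the 10 tested, all differed between types, beside 92.3% of all genes. Its summed level was lowest in COP (360 ± 96.4 CPM), followed by ependymal cells (491 ± 71.5), and highest in OPC (1001 ± 135, SD, n = 4). Per cell the order of the tested types was another one. Astrocytes were lowest (611 ± 154 UMIs per 1000 cells), COP had 654 ± 143, ependymal cells 726 ± 189 and OPC, again the highest of the tested types, 1067 ± 205. The vascular leptomeningeal cells, which were not tested, had 1114 ± 281. Among the tested types, the list was highest in OPC on both scales, whereas Npy and Pomc were highest in ependymal cells. In ependymal cells 1 of the 10 was called, as lower, beside 9.96% of all genes, and in COP 3 were lower, beside 17%. In ependymal cells Snap25 had a log2 fold change of -0.51 ± 0.15, Celf4 one of -0.075 ± 0.11 and Stmn2 one of 0.16 ± 0.14, so these 3 genes did not share a direction there.
Over all types together, cells with a Pomc UMI held a lower level of the neuron list than cells without one in each mouse: 398 against 524 CPM in mouse 3, 551 against 745 in mouse 4, 486 against 585 in mouse 30 and 427 against 583 in mouse 34. The share of cells with a UMI of the list did not follow this in every mouse, being higher among the cells with Pomc in mouse 4 (55.6 against 51.7%) and mouse 30 (46.3 against 42.8%). Cells with Pomc were deeper in each mouse, with medians of 1286 against 943 UMIs in mouse 4 and 1080.5 against 906 in mouse 30. Types and depth were not held apart here. Relative to UMI totals, though not per cell, the list is low in ependymal cells, where Pomc is high. Cells with a Cartpt UMI held more in each mouse, 529 against 520 CPM in mouse 3 and 1022 against 721 CPM in mouse 4 being the smallest and the largest gap. Npy was mixed, with more in mice 3, 4 and 30 and less in mouse 34. Agrp went the way of Pomc in each mouse, with smaller gaps: 516 against 521, 721 against 738, 537 against 585 and 567 against 577 CPM (mice 3, 4, 30 and 34).

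The pituitary list was also read, since POMC is a product of the pituitary too. Of the 7 genes read 5 were listed and 3 had UMIs, and their summed level was 34.6 to 61.2 CPM in ependymal cells against 0 to 7.49 CPM over the mice in the other tested types. It rested on Lhb, the beta subunit of luteinizing hormone, which had 136 UMIs and a log2 fold change of 6.19 ± 0.38 in ependymal cells. The other hormone genes were near 0: Cga had 6 UMIs, Gh had 8, and Tshb had 0, as did the factor Pitx1. The part of pituitary cells in the ependymal level of Pomc was not tested beyond these values.

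**Figure D5:**
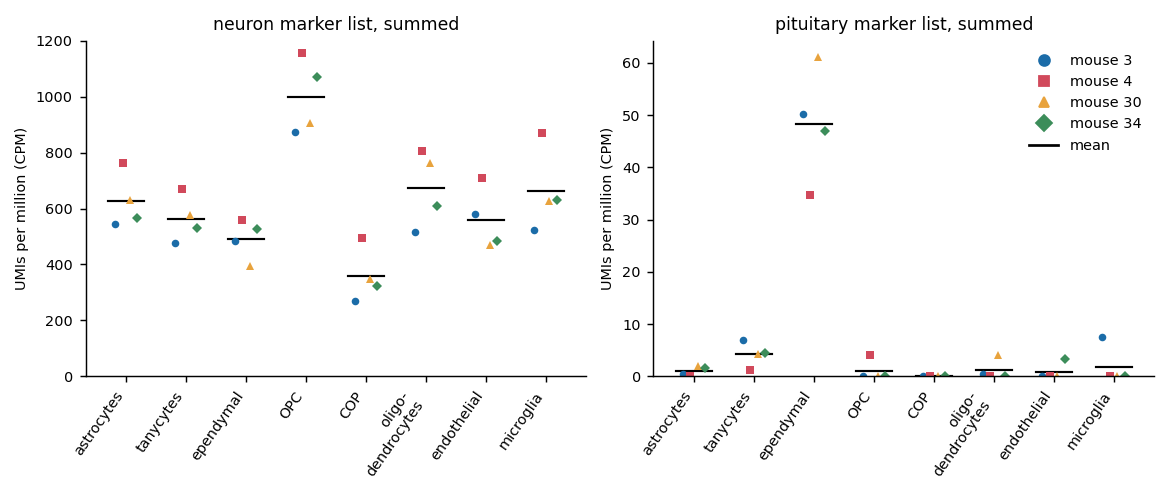
Summed level of the neuron list and of the pituitary list by cell type, in CPM; points are the 4 mice and bars their mean. On this scale the neuron list is highest in OPC and low in ependymal cells and COP, whereas the pituitary list stands at 34.6 to 61.2 CPM in ependymal cells.

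Some pairs of precursors shared cells. Counted within each mouse and type, the product of the shares of 2 genes gives the number of cells in which both would be found if they were spread independently. Agrp and Npy, which arcuate neurons make together, were found in 31 common cells, where the product was 14.1. Cartpt and Pmch, which are made together in neurons of the lateral hypothalamus, shared 50 cells beside 28.0. Npy and Sst shared 19 beside 8.21, and Cartpt and Sst 15 beside 8.70. For Pomc the counts lay nearer to the product: 21 cells beside 17.3 with Cartpt, 20 beside 19.1 with Npy and 9 beside 7.43 with Agrp. The Agrp and Npy pairs came from all 4 mice and 6 types, so they were not limited to the ependymal-labelled cell of mouse 4. Deeper cells hold more pairs of any genes, so these counts are given without a test.

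A few cells held many UMIs of 1 precursor. Of all cells, 16 held 5 or more, and 4 of these had 2 or more UMIs of the neuron list. By leading gene, 9 of the 16 were cells with Pmch, the highest being an oligodendrocyte of mouse 34 with 16 Pmch UMIs, 55 UMIs of the oligodendrocyte list and 1 of the neuron list. A tanycyte of mouse 3 with 8 Npy UMIs also held 3 Agrp UMIs and 4 of the neuron list. An endothelial cell of mouse 4 held 7 Sst UMIs. No cell reached this number for Pomc, Cartpt, Gal, Trh or Oxt.

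The genes whose products turn precursors into peptides were read as a list of 10. All 10 had UMIs, which alone do not show expression by these cells. Of the 9 tested, 8 differed between types, and 2 were higher and 1 lower in ependymal cells, shares near those over all genes (92.3%, 17.9% and 9.96%). Cpe, the carboxypeptidase that trims the cut ends of peptides, led with 52685 UMIs and had log2 fold changes of 1.35 ± 0.06 in astrocytes and 1.15 ± 0.07 in ependymal cells. Scg3, a granin of secretory granules (3324 UMIs), was higher in astrocytes (2.13 ± 0.08). Pcsk1n, which encodes an inhibitor of prohormone convertase 1 (3189 UMIs), had a log2 fold change of 0.26 ± 0.12 in ependymal cells, which did not pass the limits. Of the convertase genes, Pcsk1 had 12 UMIs and Pcsk2 had 1005, with a mean of 122 CPM in OPC and 90.2 CPM in ependymal cells; both were named after their values were seen. In COP 4 of the 9 processing genes were lower, beside 17% of all genes.

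Other precursors and the receptors complete the pathway. Of 22 genes in the list of other precursors, 5 passed the filter and all 5 differed between types, as did 92.3% of all genes. In ependymal cells 3 of the 5 were higher, beside 17.9% of all genes, and in tanycytes 4, beside 12%. In COP all 5 were lower (median log2 fold change -1.84), beside 17%, and in oligodendrocytes 2, beside 12.5%. Nnat is 1 of these 5 and was among the genes higher in tanycytes and lower in COP. By counts the list was led by Nnat, which encodes a small membrane protein rather than a peptide precursor (85067 UMIs, also on the tanycyte list), Nmb, the precursor of neuromedin B (794 UMIs), and Nucb2, the precursor of nesfatin (378 UMIs). Nmb had a log2 fold change of 3.41 ± 0.19 in ependymal cells, which was larger than that of Npy there, and Nucb2 ones of 1.39 ± 0.19 in tanycytes and 1.19 ± 0.28 in endothelial cells, with means of 32.6 and 33.2 CPM there and 43.2 CPM in the vascular leptomeningeal cells. Ghrh, the precursor of growth hormone-releasing hormone, was named after its values were seen. It had 217 UMIs and a mean of 41.8 CPM in ependymal cells, with a log2 fold change of 4.33 ± 0.34. Receptors for the peptides of the 10 genes were scarce: 13 of 18 had UMIs, 0 were tested, and the most counted were Npy1r and Npy2r with 50 UMIs each and Sstr1 with 39. Among the 8 tested types, Npy1r had its highest mean in endothelial cells (12.9 CPM), Npy2r in ependymal cells (15.9 CPM) and Sstr1 in OPC (24.5 CPM). In the 68 vascular leptomeningeal cells the mean of Npy1r was higher, at 59.6 CPM.

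Genes whose level most resembled that of a precursor over the 32 sums of mouse and type were sought by Pearson correlation of log2 CPM. These sums share mice, depth and type makeup, so the values are descriptions. For Npy they were Tsku (r = 0.79), Hopx (0.76) and Bbox1 (0.76). For Pomc they were Golgb1 (0.83), Plec (0.82) and Serpinh1 (0.81). For Cartpt they were Iqsec3 (0.80), Pmch (0.76) and Scd1 (0.70), and for Pmch they were mt-Co3 (0.79), Camk2n1 (0.78) and Iqsec3 (0.78). Agrp had the weakest likeness, with mt-Atp8 (0.63), Cnot3 (0.55) and Nmt2 (0.54).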

How the data were processed

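The authors deposited raw UMI counts per gene and cell, with a cell type label, a mitochondrial percent and a doublet score for each cell. Per the labels, Cell Ranger 1.2 and Seurat were used, and the submitters' processing notes name the builds GRCm38, mm10 and GRCh38. The deposited percent of mitochondrial UMIs was at most 19.98, and the deposited doublet score is a fraction between 0 and 1. The smallest cell had 487 UMIs and 396 genes. Depth-corrected values, and 50172 cells of 12 libraries outside the labelled samples, were not used here. No sex, batch or day of processing tells the 4 mice apart in the labels.

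Counts were summed per mouse and labelled type. Types with at least 20 cells in each of the 4 mice were fitted with edgeR 4.0.16 in R 4.3.3 (filterByExpr, TMM scaling, glmQLFit, mouse as a block), over all genes, with Benjamini-Hochberg adjustment. The block was the design's main choice, because all types of a mouse come from the same animal. Each fit was repeated per cell, with the logarithm of the number of cells as offset. A type was compared with the unweighted mean of the others, and calls needed a log2 fold change beyond 1 or -1 beside an adjusted p under 0.05. Standard errors were derived from the F statistic. The fit was tested on simulated data, drawn with no difference between mice. There the contrast of ependymal cells, whose calls also needed the limit on the log2 fold change, made no more false calls than its limit allows. The F test over all types, which has no limit on size, made clearly more false calls than its limit allows. These rates are thus not comparable, and adjusted p-values of contrasts without the limit on size were not tested. Alternatives were RLE scaling, no scaling, a filter of 10 UMIs, DESeq2 1.42.0, no block, types with at least 50 cells, each mouse left out, and 5 choices of cells or UMIs. Shares of cells were given raw and thinned to 800 or 500 UMIs, by the exact hypergeometric share, with shallower cells left out. No doublets were removed here except in 1 of these alternatives. Cells are not replicates, so values were compared over mice, and intervals were not given for sums.

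Members and gene lists were chosen with earlier results of these data known. Named were the 10 genes, the 3 most similar genes by Pearson correlation of log2 CPM (prior count 2) for tested genes with at least 200 UMIs, and the 3 genes with most UMIs of each other list discussed. One gene of the pituitary list is not reported here and was left out of its sums. Lists of choroid plexus, blood and mural genes were summed too. The choroid list (Ttr, Clic6 and Folr1 with most UMIs) had 131 ± 19.5 CPM in ependymal cells and 92.8 ± 4.96 in astrocytes (SD, n = 4), the blood list 172 ± 151 and 241 ± 208, and the mural list 55.5 ± 9.74 and 37.9 ± 6.38. The blood list, highest over all cells in mouse 30, was highest by type in microglia (1012 ± 1110 CPM) and the mural list in endothelial cells (2413 ± 229 CPM). Coordinates come from GENCODE M21 (GRCm38).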

Additional observations from a re-analysis of the deposited data

Results flagged for a closer look

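In 49 sets of 4 mice (each precursor except Avp, which was at 0, over all cells, and the 5 tested precursors in each of 8 types), 1 mouse stood far from the other 3 in 5, where about 5% of sets would be flagged by chance. Mouse 30 was the one apart in 4 of them: Oxt over all cells at 3.03 CPM, against 0 in the other mice, Agrp in astrocytes at 72.0 CPM (6.42 to 14.0), Agrp in tanycytes at 52.7 CPM (9.07 to 12.8) and Npy in oligodendrocytes at 82.3 CPM (11.2 to 22.7). Agrp in ependymal cells of mouse 4 was at 170 CPM, against 8.08 to 31.6 CPM in the others, through the single cell with 54 Agrp UMIs. These sets are not independent of each other, since the types of a mouse share a library. For Oxt, any level above 0 in 1 mouse is flagged when the other 3 are at 0. The share of 5% does not hold for that set.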

How the results depend on the processing

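Each result was recomputed under up to 15 alternatives. The number of genes that differed between types stayed within 1.5 times of the main count, from 6652 to 12148 relative to UMI totals and from 6843 to 12970 per cell, and so did the number of calls of a precursor in a type (5 to 9 against 6). Of the 5 precursors that differed relative to UMI totals, 3 did when cells were thinned to 800 UMIs, where 4 could be tested and Cartpt was lost (adjusted p = 0.375). With this thinning 88.9% of the 7484 genes tested were called. Npy and Pomc kept their direction and calls in ependymal cells under all 15 alternatives, with log2 fold changes of 1.58 to 2.43 and 1.17 to 1.68, and Pmch kept its lower call in COP (-2.21 to -1.49). Agrp in ependymal cells turned negative without mouse 4 (-0.10), without the 10% of cells with the highest doublet score (-0.086), without cells with 2 or more UMIs of the neuron list (-0.014) and, chosen after seeing the data, without cells with 5 or more UMIs of a precursor (-0.14), and it ranged from -0.10 to 1.82 over the mice left out and was 0.019 with at most 1 UMI per cell and gene. The difference of Agrp between types was lost relative to UMI totals with DESeq2 (adjusted p = 0.05002), with no replicate block (0.196), with at most 1 UMI per cell and gene (0.104) and without cells with 5 or more UMIs of a precursor (0.0602), and per cell under 6 of 12 alternatives (adjusted p of up to 0.710). With no replicate block, Npy in COP was no longer called (-1.17, adjusted p = 0.0659), nor was it without mouse 30 (-0.83, adjusted p = 0.0643). Pomc in endothelial cells ranged from 0.83 to 1.24, and fell below the limit of 1 with RLE scaling, no scaling, DESeq2, types of 50 cells, without mouse 30 (0.83), without mouse 34 (0.97) and without cells with 2 or more UMIs of the neuron list. Pmch differed between types per cell without those last cells (adjusted p = 0.00647). The causes of these changes were not tested beyond the single cell described for Agrp. Trh, Oxt, Gal and Sst did not pass the main filter on low counts. Sst passed it without mouse 30 and without mouse 34, with no difference called (adjusted p = 0.5002 and 0.465 relative to UMI totals).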
